A study of Mus musculus with 5 samples.

Results

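The 10 genes described here carry peptides to the cell surface on MHC class I or control the genes that do: the heavy chain genes H2-K1, H2-D1 and H2-T23, the light chain gene B2m, the peptide transporter genes Tap1 and Tap2, the tapasin gene Tapbp, the immunoproteasome genes Psmb8 and Psmb9, and the regulator gene Nlrc5. They were chosen by symbol, and all 10 were found among the 32245 gene symbols of the expression tables. They were followed in 2 droplet libraries of BALB/c mice, labelled as 6 weeks old, that carried subcutaneous CT26 tumours (a BALB/c colon carcinoma line). Mice of the control group were given PBS, and mice of the other group were given 100 µg of the anti-CTLA-4 antibody 9H10 into the abdominal cavity, in both groups on days 5, 8 and 11. The tissue was taken on day 13. Each group is 1 library, the labels name its material only as tissue and do not say how many mice it holds, so no difference between the groups has a replicate check and no p-value is given. Intervals in brackets are 95% intervals that cover counting error only.

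In a cell, proteasomes cut proteins into peptides, TAP carries these into the endoplasmic reticulum, and tapasin helps to load them on a heavy chain paired with beta-2-microglobulin. The loaded complex is read by CD8 T cells at the surface, and its absence can release NK cells. Interferons raise these genes together, and NLRC5 acts on their promoters through a shared module of S, X and Y boxes. BALB/c mice carry the d haplotype of the H2 complex, with an H2-L gene close to H2-D1 in sequence, whereas the mm10 reference is of the b haplotype of C57BL/6. Reads of near-identical class I genes can be split or moved between genes, so the values of H2-K1 and H2-D1 are uncertain as single genes.

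On GRCm38 in GENCODE M21, B2m is on chromosome 2 (122147686 to 122153083) and Nlrc5 on chromosome 8, and the other 8 genes are on chromosome 17. There, Tap1 (34187553 to 34197225, plus strand), Tap2 (34203527 to 34216321, plus strand), Psmb8 (34197721 to 34201454, plus strand) and Psmb9 (34181987 to 34187764, minus strand) are neighbours, with H2-K1 (33996017 to 34000347, minus strand) and Tapbp (33915899 to 33929292, plus strand) on one side and H2-D1 (35262730 to 35267499, plus strand) and H2-T23 (36029773 to 36032855, minus strand) on the other. The Tap1 and Psmb9 genes overlap by 212 bases on opposite strands. Whether the counting used the strand is not given in the sources used here, so reads from that overlap may be assigned to either gene.

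The promoter windows of RefSeq (GRCm38.p6) hold 8 of the 10 genes, with 250 bases before the start and 50 after it. The windows of H2-K1, H2-D1, B2m and Tap1 are shown because the first 3 of these genes have the highest correlations with each other between tumour cells below, and Tap1 because its window is largely that of Psmb9 as well. Capitals mark matches, on either strand, to the X2 core TGACG, the Y box CCAAT, an interferon response core GAANNGAAA and an NF-kappa-B core GGGGANTCC. For H2-K1 the window of the more downstream of its 2 listed starts is given.
H2-K1 (chr17:34000284-34000583, minus strand): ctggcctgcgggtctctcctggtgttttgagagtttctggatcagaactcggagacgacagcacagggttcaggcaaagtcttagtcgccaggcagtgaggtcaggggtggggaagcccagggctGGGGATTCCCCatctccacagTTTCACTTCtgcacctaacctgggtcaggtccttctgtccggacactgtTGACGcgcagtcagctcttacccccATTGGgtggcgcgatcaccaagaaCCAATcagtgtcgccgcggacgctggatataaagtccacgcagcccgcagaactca
H2-D1 (chr17:35262844-35263143, plus strand): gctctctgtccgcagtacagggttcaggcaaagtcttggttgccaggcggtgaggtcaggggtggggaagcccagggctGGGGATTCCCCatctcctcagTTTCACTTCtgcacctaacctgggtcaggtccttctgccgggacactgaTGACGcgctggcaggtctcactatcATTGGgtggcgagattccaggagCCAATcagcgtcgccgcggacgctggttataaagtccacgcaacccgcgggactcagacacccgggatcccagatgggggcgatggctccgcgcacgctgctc
B2m (chr2:122147437-122147736, plus strand): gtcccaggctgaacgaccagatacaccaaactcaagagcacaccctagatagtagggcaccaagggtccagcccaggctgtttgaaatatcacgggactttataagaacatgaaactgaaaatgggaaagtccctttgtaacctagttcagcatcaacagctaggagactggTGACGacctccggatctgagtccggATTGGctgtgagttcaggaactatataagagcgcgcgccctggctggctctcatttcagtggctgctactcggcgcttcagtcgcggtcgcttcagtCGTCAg
Tap1 (chr17:34187306-34187605, plus strand): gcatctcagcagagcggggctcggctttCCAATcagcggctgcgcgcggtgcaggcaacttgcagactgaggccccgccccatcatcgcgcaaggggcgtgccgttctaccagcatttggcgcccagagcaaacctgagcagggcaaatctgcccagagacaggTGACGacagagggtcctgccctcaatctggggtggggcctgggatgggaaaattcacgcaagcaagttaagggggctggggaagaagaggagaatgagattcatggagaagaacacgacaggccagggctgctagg

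Of the 8 genes, 5 (H2-K1, H2-D1, B2m, Tap1 and Psmb9) held the X2 core, against 20.8% of 32851 windows. The Y box was found in 7, all but Psmb8, against 37.4% of windows, and the same 5 genes held both, against 7.73%. The interferon response core, in the form GAANNGAAA, was found in H2-K1 and H2-D1 alone of the 8, against 7.52% of windows. The NF-kappa-B core was found in the same pair, against 1.19%. The B2m window also holds gaaactgaaa, a longer form that the interferon pattern cannot match. Windows were not searched for that form, so the count covers GAANNGAAA alone. The H2-K1 and H2-D1 windows shown aligned over 242 columns with 217 identical bases (89.7%). In H2-K1, H2-D1 and B2m, TGACG was followed by ATTGG, the Y box on the other strand, with 25 bases between the first bases of each. That spacing was looked up after the positions were seen. It was found on either strand in 31 of 32851 windows (0.0944%), among them that of H2-M3, another class I gene. The Tap1 and Psmb9 windows share 275 bases, so the X2 core and the Y box they both hold are the same stretches of sequence. These matches are letters in a reference of another strain, and binding was not measured.

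The control library held 5649 cell barcodes with 86478313 UMIs (median 6827 per barcode), and the anti-CTLA-4 library 4186 barcodes with 19989467 UMIs (median 3147.5), and 20 barcodes were in both. After filtering, 5242 and 3950 cells were kept. They were clustered together without the 10 genes, the rest of the class I pathway or MHC class II, and the classes were named from markers. The tumour-like class was named from Crabp1, Areg, Krt20 and similar genes, some of which were already known from these data to lead the clusters without Ptprc, and Krt8 and Krt18 held 7 UMIs each in its 71473889 control UMIs. It held 2548 control cells and only 19 anti-CTLA-4 cells, and in the latter the tumour markers summed to 16.4 UMIs per 10000 UMIs of the class, against 70.3 in the control. The label of those 19 cells is therefore less certain, and they enter no comparison. The other classes with 50 or more cells in both libraries were fibroblast-like (146 control and 124 anti-CTLA-4 cells), keratinocyte-like (168 and 98), monocyte/macrophage-like (928 and 360), neutrophil-like (83 and 219), dendritic-like (64 and 55), T-like (330 and 1718), NK-like (231 and 104) and B-like (73 and 621). Plasma-like cells were found only in the anti-CTLA-4 library (94 cells), and endothelial-like cells were few (35 and 16). Tumour markers were also found in T-like cells, where they summed to 8.25 per 10000 in the control and to 0.575 in the anti-CTLA-4 library. In the latter, Areg alone stood at 0.422 and Crabp1 at 0.00884, beside 2.0 and 4.23 in the control. Free RNA, remaining doublets and the cells' own expression were not told apart as the source of these markers. Class levels below are summed UMIs of a gene per 10000 UMIs of the class.

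As a share of the UMIs of the class, control tumour-like cells had the lowest summed level of the 10 genes of the 9 classes compared. The sum was 59.0 UMIs per 10000 (58.9 to 59.2) in tumour-like cells, 65.8 in fibroblast-like, 68.7 in keratinocyte-like, 72.3 in B-like, 79.3 in neutrophil-like, 104 in monocyte/macrophage-like, 111 in dendritic-like, 134 in NK-like and 143 (140 to 145) in T-like cells. The intervals of neighbours in that order overlapped from fibroblast-like up to neutrophil-like cells and did not overlap elsewhere. The 35 control endothelial-like cells stood at 171, above all 9, and were above them for H2-K1 (44.96), H2-D1 (63.4) and B2m (40.5) as well. The orders below are over the 9 classes alone, and they are orders of shares, not of RNA per cell. Per cell, control tumour-like cells held 166 UMIs of the 10 genes and fibroblast-like cells 56.4, at median depths of 27493 and 5880 UMIs. Tumour-like cells were not the lowest class in every gene, as the plot of levels by class shows. They had the lowest H2-K1, H2-T23 and B2m, and their Tap1 (0.469) was level with that of B-like cells, the next lowest. Their H2-D1, Tap2, Tapbp and Psmb9 lay between those of fibroblast-like and keratinocyte-like cells, and their Psmb8 lay above both.

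**Figure D1:**
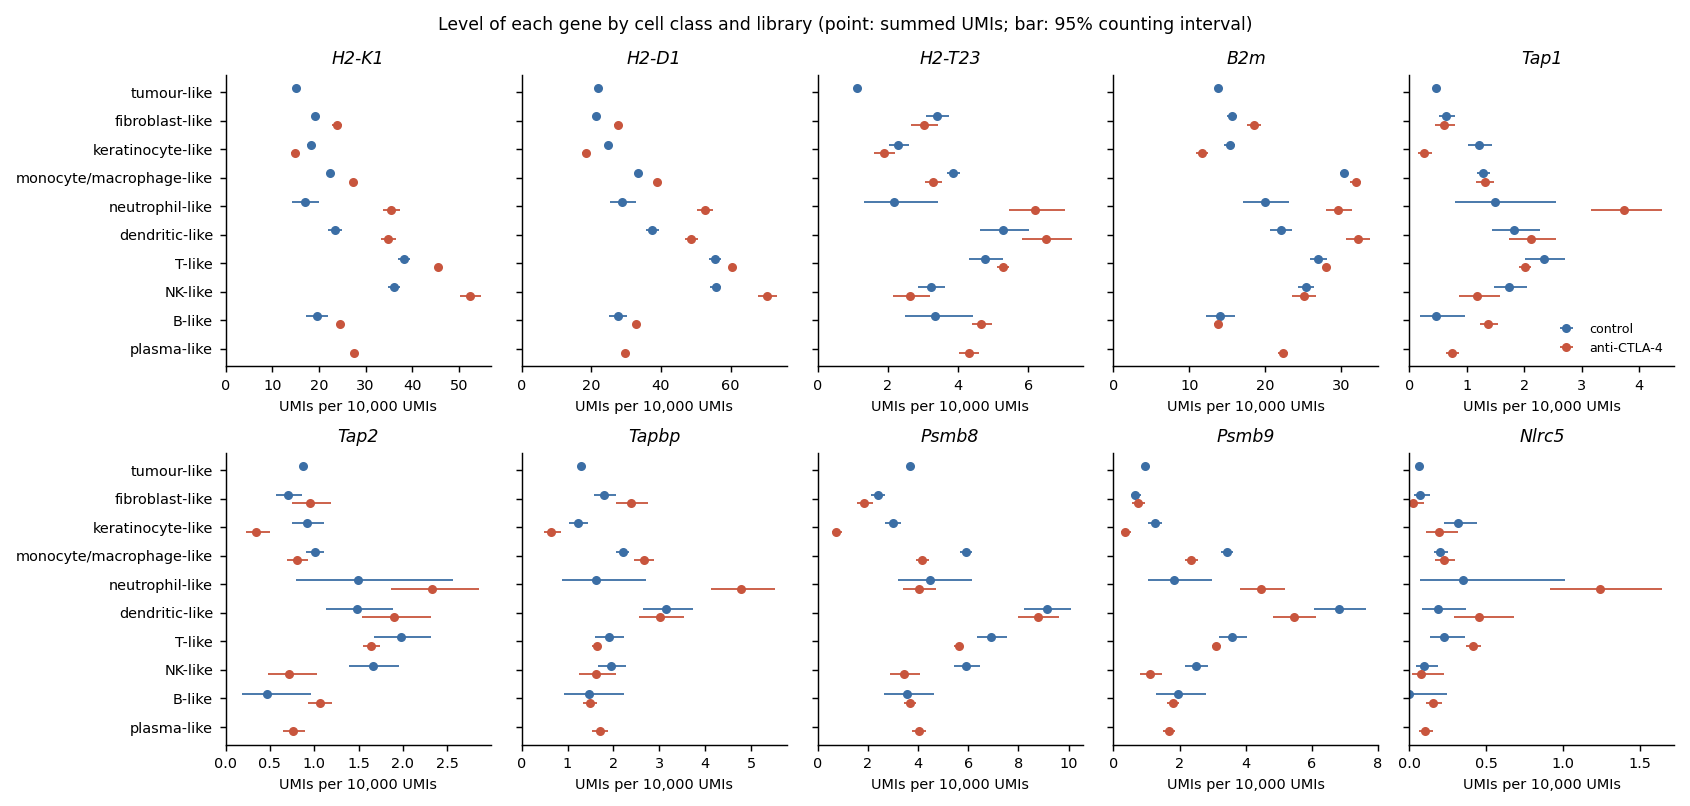
Level of each of the 10 genes (horizontal axes, UMIs per 10000 UMIs of the class, each panel on its own scale) in classes of at least 50 cells, with control points in blue, anti-CTLA-4 points in red and 95% counting intervals as bars. Tumour-like cells sit at the low end for H2-T23 (1.11) and B2m (13.7), neutrophil-like points lie far apart between the libraries for Tap1 (1.498 and 3.74), and keratinocyte-like points lie lower in anti-CTLA-4 for Psmb8 (3.0 and 0.751).

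Of the 9 classes, T-like and NK-like cells had the highest levels of the classical heavy chain genes. H2-K1, whose product presents peptides to CD8 T cells, stood in the control at 15.02 per 10000 in tumour-like, 16.9 in neutrophil-like, 18.2 in keratinocyte-like, 19.2 in fibroblast-like, 19.5 in B-like, 22.5 in monocyte/macrophage-like, 23.4 in dendritic-like, 36.2 in NK-like and 38.2 in T-like cells. The neutrophil-like interval (14.3 to 19.9) held the tumour-like value, so these classes could not be told apart for H2-K1. H2-D1, which encodes the other classical heavy chain, was 21.8 in tumour-like and 21.3 in fibroblast-like cells, with overlapping intervals. Its other control levels were 24.9 in keratinocyte-like, 27.6 in B-like, 28.9 in neutrophil-like, 33.3 in monocyte/macrophage-like, 37.5 in dendritic-like, 55.5 in T-like and 55.7 in NK-like cells. B2m, the light chain of every class I molecule, was instead highest, among the 9, in monocyte/macrophage-like cells (30.4), followed by T-like (27.04), NK-like (25.3), dendritic-like (22.1), neutrophil-like (19.9), fibroblast-like (15.6), keratinocyte-like (15.3), B-like (14.0) and tumour-like cells (13.7).

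H2-T23 encodes the heavy chain of Qa-1, which presents leader peptides of other class I proteins to the CD94/NKG2A receptor of NK and T cells. Its control level was 1.11 (1.09 to 1.14) in tumour-like cells and 2.19 to 5.28 in the other 8 classes, with neutrophil-like cells lowest and dendritic-like cells highest among them, and no interval of another class reached the tumour-like one. It was the only one of the 10 genes past 2-fold lower in tumour-like cells against each of the 8 classes. The ratio of the tumour-like level to that of the other class ran from 0.211 (0.184 to 0.241) against dendritic-like cells to 0.508 (0.325 to 0.844) against neutrophil-like cells. A value is called past 2-fold when 0.5 UMI is added to each sum, which is why the last of these counts. Against neutrophil-like and keratinocyte-like cells the call depended on the processing: with means over cells the log2 ratios were -0.78 and -0.71, with totals that left out mitochondrial and ribosomal genes -0.70 and -0.98, and against neutrophil-like cells with doublets kept -0.98. Against the other 6 classes it was past 2-fold lower under each alternative run.

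The transporter and loading genes had different orders. Tap1, the first subunit of the peptide transporter, was 0.469 in tumour-like, 0.469 in B-like (7 UMIs), 0.640 in fibroblast-like, 1.21 in keratinocyte-like, 1.29 in monocyte/macrophage-like, 1.498 in neutrophil-like, 1.74 in NK-like, 1.83 in dendritic-like and 2.34 in T-like control cells. Tap2, the other subunit, was 0.869 in tumour-like cells, between B-like (0.469, 7 UMIs) and fibroblast-like (0.704) cells below and keratinocyte-like (0.920) and monocyte/macrophage-like (1.004) cells above, all with overlapping intervals from one neighbour to the next. It reached 1.48 in dendritic-like, 1.498 in neutrophil-like, 1.66 in NK-like and 1.98 in T-like cells. Tapbp, which encodes tapasin, was 1.30 in tumour-like and 1.23 in keratinocyte-like cells, 1.48 to 2.20 in 6 further classes, and 3.14 (2.63 to 3.72) in dendritic-like cells, whose interval overlapped that of neutrophil-like cells alone.

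Dendritic-like cells also led for both immunoproteasome genes, whose products replace standard catalytic subunits. Psmb8 was 3.67 in tumour-like, 2.41 in fibroblast-like, 3.0 in keratinocyte-like, 3.55 in B-like, 4.49 in neutrophil-like, 5.91 in monocyte/macrophage-like, 5.93 in NK-like, 6.93 in T-like and 9.13 in dendritic-like control cells. Psmb9 was 0.664 in fibroblast-like, 0.943 in tumour-like, 1.26 in keratinocyte-like, 1.84 in neutrophil-like, 1.94 in B-like, 2.49 in NK-like, 3.44 in monocyte/macrophage-like, 3.60 in T-like and 6.83 in dendritic-like cells. Tumour-like cells were thus above fibroblast-like cells for both genes. After each cell was thinned to 1000 UMIs, Psmb9 had a UMI in 9.03% (7.94 to 10.2) of 2525 tumour-like and 27.5% (24.6 to 30.6) of 893 monocyte/macrophage-like control cells, against 65.6% and 60.2% before thinning, when the median depths were 27493 and 3870.5 UMIs.

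Nlrc5, the regulator of class I genes, was sparse in every class. Its control level was 0.0630 (0.0573 to 0.0691) in tumour-like cells on 450 UMIs, 0.0720 in fibroblast-like, 0.0941 in NK-like, 0.188 in dendritic-like, 0.202 in monocyte/macrophage-like, 0.228 in T-like, 0.319 in keratinocyte-like and 0.346 in neutrophil-like cells. In the 73 control B-like cells no UMI was found in 149149, which allows a level of up to 0.247. The intervals of all neighbours in that order overlapped.

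Set against each class in turn, the count of the 10 genes past 2-fold lower in tumour-like cells was highest against T-like cells. It was 7 against T-like cells, where 22.3% of 11545 genes tested were past 2-fold lower: the exceptions were B2m (ratio 0.508), Psmb8 (0.530) and Tapbp (0.682). B2m was past 2-fold under 3 alternatives (log2 ratio -1.07 to -1.002) and Psmb8 under 1 of them (-1.11). Against NK-like cells it was 5 (H2-K1, H2-D1, H2-T23, Tap1 and Psmb9; 21.9% of genes). Against dendritic-like cells it was 6 (H2-T23, Tap1, Tapbp, Psmb8, Psmb9 and Nlrc5; 18.8%), with Psmb9 at 0.138 (0.123 to 0.156). Against monocyte/macrophage-like cells it was 5 (H2-T23, B2m, Tap1, Psmb9 and Nlrc5; 18.6%). Against neutrophil-like cells it was 4 (H2-T23, Tap1, Psmb9 and Nlrc5; 29.8%), on only 688 control UMIs of the 10 genes, and 2 with totals that left out mitochondrial and ribosomal genes. Against keratinocyte-like cells it was 3 (H2-T23, Tap1 and Nlrc5; 19.3%), or 1 with means over cells, against B-like cells 2 (H2-T23 and Psmb9; 29.1%), and against fibroblast-like cells 1 (H2-T23; 17.9%). The counts against B-like and fibroblast-like cells are under the share of all genes, and those against neutrophil-like and keratinocyte-like cells are near it. The median log2 ratio of the 10 genes was -1.35 against T-like cells, -1.30 against dendritic-like and -1.10 against NK-like cells, where the medians of all genes tested were 0.07, 0.17 and 0.06. No gene of the 10 was past 2-fold higher in tumour-like cells on UMIs in both classes; the largest such ratio was 1.85 (0.898 to 4.61) for Tap2 against B-like cells.

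Leukocyte RNA in the tumour-like droplets was near 0. Of 14 leukocyte markers, each stood in control tumour-like cells at 0.00673% to 0.338% of its level in the class it defines, with Cd79a lowest and Coro1a highest, and their sum was 0.348 per 10000. The 10 genes stood at 27.4% (Psmb9) to 86.5% (Tap2) of their monocyte/macrophage-like level in the same cells. The tumour markers in control leukocytes are not part of any interval.

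The mixture of proteasome subunits also differed between the classes. Psmb8 made up 52.8% (52.4 to 53.2) of Psmb8 plus Psmb5 UMIs in control tumour-like cells, 50.8% in fibroblast-like, 55.5% in keratinocyte-like, 71.1% in monocyte/macrophage-like, 75.0% in T-like and 76.9% in dendritic-like cells. Psmb5 encodes the standard subunit that Psmb8 replaces. Psmb9 made up 28.3% of Psmb9 plus Psmb6, its standard counterpart, in tumour-like, 23.99% in fibroblast-like, 30.3% in keratinocyte-like, 49.7% in monocyte/macrophage-like, 65.4% in T-like and 69.8% in dendritic-like cells. For the third such pair, Psmb10 and Psmb7, the tumour-like share of 59.5% (58.8 to 60.2) was higher than the keratinocyte-like share of 31.5% (24.8 to 38.8) and the fibroblast-like share of 47.3% (40.6 to 54.1). These shares compare classes, and how UMIs of a pair relate to protein was not measured.

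The rest of the pathway was set beside the 10 genes in the same way. Against monocyte/macrophage-like cells, 3 of 16 other class I pathway genes with at least 50 UMIs were past 2-fold lower and none higher, a share near the 18.6% of all genes (median log2 ratio -0.66, against -0.95 for the 10 genes and 0.28 for all genes tested). H2-Q4, a non-classical heavy chain gene, was 4.72 in tumour-like and 3.50 in monocyte/macrophage-like cells (ratio 1.35), while H2-Q7 was 0.174 and 0.690 (0.252). Standard proteasome genes were within 2-fold in 10 of 10. Of 16 interferon-gamma response genes, 12 were past 2-fold lower and 1 higher, Irf1 (2.41), which encodes an activator of class I genes. Of 14 type I interferon response genes, 12 were lower and none higher, with Isg15 at 1.63 in tumour-like and 11.98 in monocyte/macrophage-like cells (0.136). Receptor and signalling genes of the interferons were lower in 7 of 10, and genes of the factors that bind class I promoters in 1 of 8, Nfya (0.481), a subunit of the factor that binds the Y box.

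Across libraries, the 10 genes moved in different directions in different classes. In T-like, monocyte/macrophage-like, dendritic-like and fibroblast-like cells, none was past 2-fold in either direction, where 8.64%, 12.4%, 14% and 12.9% of all genes tested were. In T-like cells the ratios of anti-CTLA-4 over control ran from 0.813 (Psmb8) to 1.82 (Nlrc5, 18 control UMIs). H2-K1 was 38.2 in control and 45.5 in anti-CTLA-4 T-like cells, a ratio of 1.19 (1.15 to 1.24). The T-like cells came from different clusters in the 2 libraries: of the 330 control cells, 142 were in cluster 9, 32 in cluster 7 and 17 in cluster 12, and of the 1718 anti-CTLA-4 cells, 231, 365 and 272 were. The higher tumour markers of the control T-like cells are given above. After estimated free RNA was subtracted, still none of the 10 genes was past 2-fold in T-like cells. That estimate takes in the T-like cells' own expression of its genes, so it cannot decide the part of free RNA. Within the T-like class, the direction for H2-K1 differed between clusters: 1.40 (1.29 to 1.53) in cluster 1 and 0.832 (0.787 to 0.880) in cluster 9. In monocyte/macrophage-like cells the ratios ran from 0.683 (Psmb9) to 1.21 (H2-K1 and Tapbp), while 8 of 14 type I interferon response genes and 14 of 17 cell cycle genes were past 2-fold lower. Its cells came mostly from cluster 3 in the control (646 of 928) and from cluster 5 in the anti-CTLA-4 library (301 of 360). Within cluster 5, Psmb8 (0.951) and Psmb9 (0.977) were near 1, against 0.611 and 0.7004 within cluster 3.

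**Figure D2:**
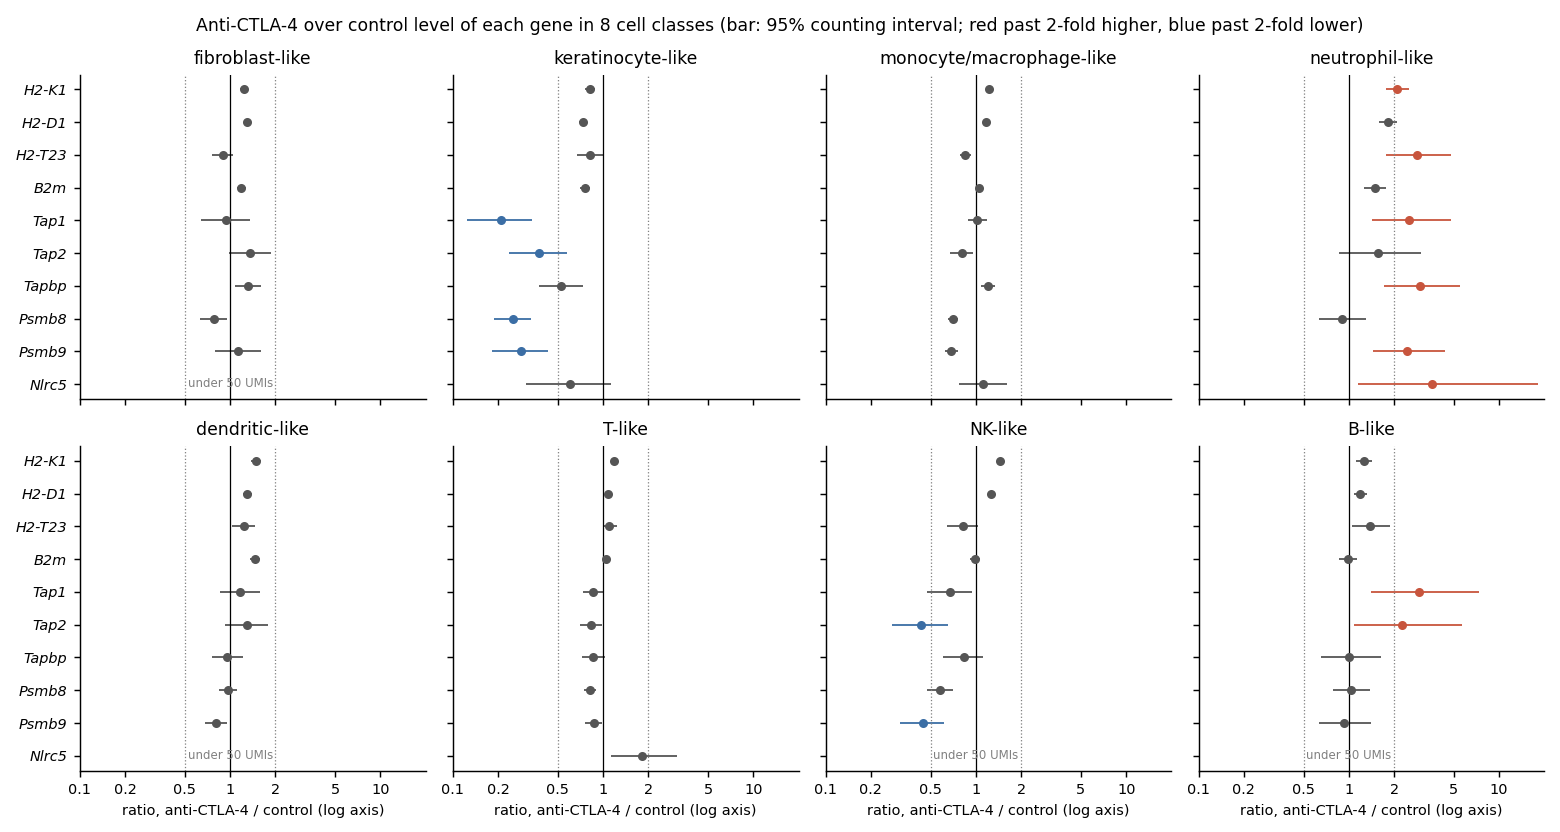
Ratio of the anti-CTLA-4 over the control level (horizontal axes, log scale, the same in all panels) of the 10 genes in 8 classes, with 95% counting intervals, a solid line at 1 and dotted lines at 0.5 and 2. Red points past 2-fold higher are in the neutrophil-like (6 genes) and B-like (2) panels, and blue points past 2-fold lower are in the keratinocyte-like (4) and NK-like (2) panels.

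Keratinocyte-like cells, named from Krt5, Krt14 and similar genes of skin epithelium, had lower values of the peptide-processing genes in the anti-CTLA-4 library. Tap1 was 1.21 in control and 0.255 in anti-CTLA-4 cells (ratio 0.210, 0.124 to 0.337), Psmb8 3.0 and 0.751 (0.250, 0.187 to 0.331), Psmb9 1.26 and 0.357 (0.284, 0.182 to 0.428), and Tap2 0.920 and 0.344 (0.374, 0.235 to 0.575). These 4 of 10 compare with 8.11% of 4659 genes past 2-fold lower in the class, and the median log2 ratio of the 10 was -0.81, against 0.02 for all genes tested. The heavy and light chain genes were within 2-fold, at 0.736 (H2-D1), 0.759 (B2m), 0.820 (H2-K1) and 0.822 (H2-T23), as were Tapbp (0.528) and Nlrc5 (0.600). With estimated free RNA subtracted, H2-D1 (log2 ratio -1.15), Tapbp (-1.82) and Nlrc5 (-1.05) were past 2-fold lower too. That setting took 10.2% of control and 20.3% of anti-CTLA-4 UMIs of a class, at the mean profile of each library. H2-D1 stood at 23.3 and 44.5 per 10000 in those profiles, so more was taken from the anti-CTLA-4 cells. These added calls cannot decide whether the chain genes moved with the processing genes. The share of Psmb8 in Psmb8 plus Psmb5 was 55.5% (51.4 to 59.5) in the control and 20.2% (15.8 to 25.3) in the anti-CTLA-4 cells, that of Psmb9 30.3% and 10.4%, and that of Psmb10 31.5% and 8.85%. Standard proteasome genes were within 2-fold in 10 of 10.

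Interferon-responsive genes were lower in the same keratinocyte-like cells. Of 5 interferon-gamma response genes with at least 50 UMIs, 3 were past 2-fold lower and none higher. Among them, Gbp2, an interferon-induced GTPase, was 0.380 in control and 0.0891 in anti-CTLA-4 cells (0.234, 0.0889 to 0.525), and Iigp1, another such GTPase, had 53 UMIs and 0 UMIs. Of 3 type I interferon response genes, 2 were lower: Bst2 (0.323) and Irf7 (0.316). The receptor and signalling genes were within 2-fold in 5 of 5. Genes outside the interferon lists were lower as well: of 12 cell cycle genes, 5 were past 2-fold lower and none higher (median log2 ratio -0.93). Of all genes tested in the class, 8.11% were past 2-fold lower. In the control and anti-CTLA-4 keratinocyte-like cells, tumour markers summed to 13.2 and 11.7 per 10000 and leukocyte markers to 2.52 and 3.18. The tumour marker list includes Krt8 and Krt18, which were nearly absent from tumour-like cells. Here Krt8 was 2.88 and 4.78, Krt18 1.41 and 4.55, Areg 5.14 and 1.99, and Crabp1 1.33 and 0. The summed tumour markers therefore do not compare tumour RNA alone. The part of these lists in the result was not tested.

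Neutrophil-like cells had higher values in the anti-CTLA-4 library. H2-K1 was 16.9 in control and 35.6 in anti-CTLA-4 cells (ratio 2.10, 1.77 to 2.51), H2-T23 2.19 and 6.197 (2.83, 1.77 to 4.78), Tap1 1.498 and 3.74 (2.50, 1.42 to 4.81), Tapbp 1.61 and 4.78 (2.96, 1.72 to 5.52), Psmb9 1.84 and 4.47 (2.42, 1.45 to 4.33) and Nlrc5 0.346 and 1.24 (3.59, 1.16 to 18.0). These 6 of 10 compare with 17.2% of 1076 genes past 2-fold higher, and the median log2 ratio of the 10 was 1.15, against 0.14 for all genes tested. H2-K1 was short of 2-fold under 3 alternatives (log2 ratio 0.95 to 0.98). H2-D1 (1.82), Tap2 (1.55) and B2m (1.49) were within 2-fold above 1, and Psmb8 was 4.49 and 4.03 (0.896, 0.628 to 1.31). The control values rest on few UMIs, from 3 for Nlrc5 to 251 for H2-D1, in 83 cells of median 933 UMIs, against 219 cells of median 1658 UMIs. Of 12 interferon-gamma response genes, 8 were past 2-fold higher and 1 lower, among them Cd274, which encodes PD-L1 (6.57 and 22.6, ratio 3.44), and Gbp2, an interferon-induced GTPase (4.84 and 12.4, ratio 2.56). None of 9 type I interferon response genes was past 2-fold, and Isg15 was 73.5 and 52.5 (0.715). Tumour markers summed to 14.2 per 10000 in control and 0.0775 in anti-CTLA-4 neutrophil-like cells. Of 10 dissociation and heat stress genes, 4 were past 2-fold lower and 1 higher (median log2 ratio -0.78). The part of both in the result was not tested.

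NK-like and B-like cells differed in fewer of the genes. In NK-like cells, 2 of 9 with at least 50 UMIs were past 2-fold lower, where 5.36% of 3431 genes were: Tap2 was 1.66 in control and 0.717 in anti-CTLA-4 cells (0.432, 0.277 to 0.652), and Psmb9 2.49 and 1.10 (0.441, 0.310 to 0.615). Their classical heavy chain genes lay above 1, with H2-K1 at 36.2 and 52.5 (1.45, 1.37 to 1.53) and H2-D1 at 55.7 and 70.6 (1.27, 1.21 to 1.33). In B-like cells, 2 of 9 were past 2-fold higher, where 8.94% of 5326 genes were: Tap1 was 0.469 and 1.37 (2.93, 1.40 to 7.35) and Tap2 0.469 and 1.06 (2.26, 1.08 to 5.69), each on 7 control UMIs. The B-like H2-K1 level was 19.5 and 24.5 (1.25, 1.11 to 1.42). Tumour markers summed to 4.53 in control and 0.461 in anti-CTLA-4 NK-like cells and to 12.7 and 0.806 in B-like cells. Of the B-like sums, Csrp2 made up 1.48 in the control and 0.767 in the anti-CTLA-4 library. Of the dissociation and heat stress genes, 3 of 10 were past 2-fold higher and 1 lower in NK-like cells (median log2 ratio 0.71), and 3 of 9 lower and none higher in B-like cells (-0.72). Their part in the results was not tested.

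The 19 anti-CTLA-4 tumour-like cells had a summed level of 116 per 10000, beside 59.0 in the control cells. Their H2-K1 was 28.9, H2-T23 5.07, Tap1 2.07, Psmb8 8.92 and Psmb9 4.21, beside 15.02, 1.11, 0.469, 3.67 and 0.943 in the control. Their Crabp1 was 11.5 and their Areg 0.169, beside 49.6 and 4.24, and their leukocyte markers summed to 1.26, beside 0.348. Which cells these are was not tested, and no ratio is drawn from them.

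Among control tumour-like cells the genes varied together. The 2326 of 2548 cells with at least 5000 UMIs were thinned to 5000 each. The summed UMIs of the 10 genes then had a mean of 31.0 and a median of 29, the lowest 10% of cells had at most 12 and the highest 10% at least 51, and the maximum was 103. The variance over the mean was 7.69, where counting error alone gives 1, and the spread beyond counting was a coefficient of variation of 0.464. No cell was without a UMI of the 10 genes. The top 10% of the cells held 19.97% of these UMIs. The histogram shows a broad peak with a long upper tail.

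**Figure D3:**
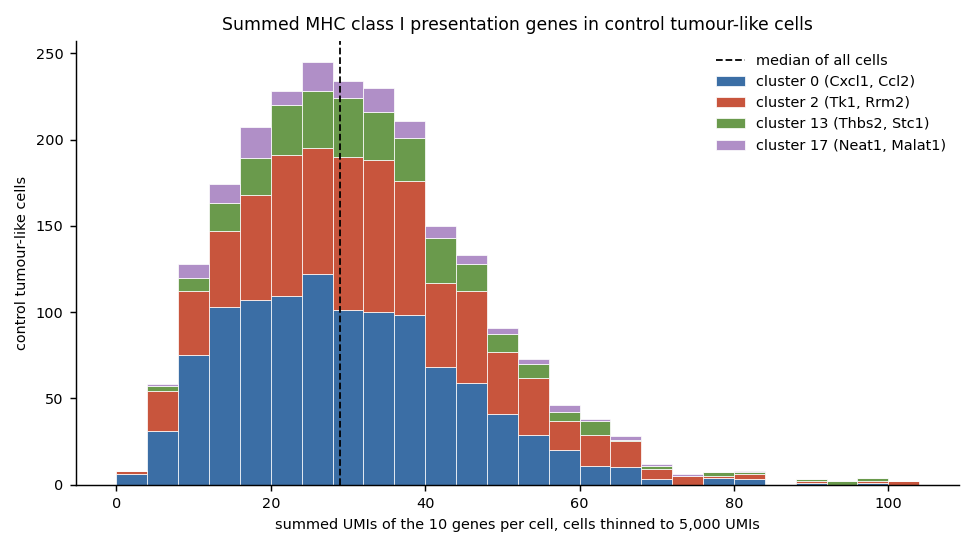
Number of control tumour-like cells (vertical axis) by the summed UMIs of the 10 genes (horizontal axis) after each cell was thinned to 5000 UMIs, stacked by cluster, with a dashed line at the median of 29. The 4 clusters overlap around the median, with medians of 27, 31, 31 and 27.5 in clusters 0, 2, 13 and 17. They enter with 1102, 817, 281 and 126 thinned cells in that order.

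Of the 10 genes, 4 had a variance over mean above 1.5, where 9.21% of 7221 genes with a mean of at least 0.05 did: H2-D1 (4.04), H2-K1 (3.25), B2m (2.49) and Psmb8 (1.81). This measure grows with the mean, and the other 6 had means of 0.0430 (Nlrc5) to 0.686 UMIs (Tapbp). H2-K1 had a UMI in 97.5% of the thinned cells, H2-D1 in 99.2%, B2m in 98.5% and Psmb8 in 75.1%. The less abundant genes had one in 43.9% (Tapbp), 42.6% (H2-T23), 34.8% (Tap2), 31.7% (Psmb9), 19.7% (Tap1) and 3.91% (Nlrc5). With spread beyond counting as a coefficient of variation, B2m was lowest (0.4495) and H2-D1 (0.517) and H2-K1 (0.535) followed, while Tap1 stood at 1.19 and Nlrc5 at 1.91.

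All 45 pairs of the 10 genes had a Spearman correlation above 0 over these cells, and 33 were above 0.1, where 0.805% of all gene pairs were. The median was 0.138, against 0.00528 over all pairs of genes. It was 0.0697 when cells were thinned to 2000 UMIs and 0.232 at 10000. Such values depend on the counts, and the pairs of all genes were not matched to the 10 genes in mean. With thinning to 2000 UMIs, without cells with a Ptprc UMI, or with a mitochondrial limit of 10%, 44 pairs were above 0. The correlations are descriptions over cells of 1 library, which share their handling, and no p is given. The largest was 0.68 for H2-K1 with H2-D1, whose reads can be exchanged, followed by H2-D1 with B2m (0.46), H2-K1 with B2m (0.43) and H2-D1 with Psmb8 (0.31). H2-T23 was nearest to H2-D1 (0.26), Psmb9 to Psmb8 (0.24), Tapbp to H2-K1 (0.22), Tap2 to H2-D1 (0.21) and Tap1 to H2-D1 (0.20). Tap1 and Tap2, whose products form 1 transporter, had 0.12. Nlrc5 had the lowest values, 0.03 with H2-T23 to 0.10 with Tap2, on a mean of 0.0430 UMIs per cell. Weak values of sparse genes are no finding.

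**Figure D4:**
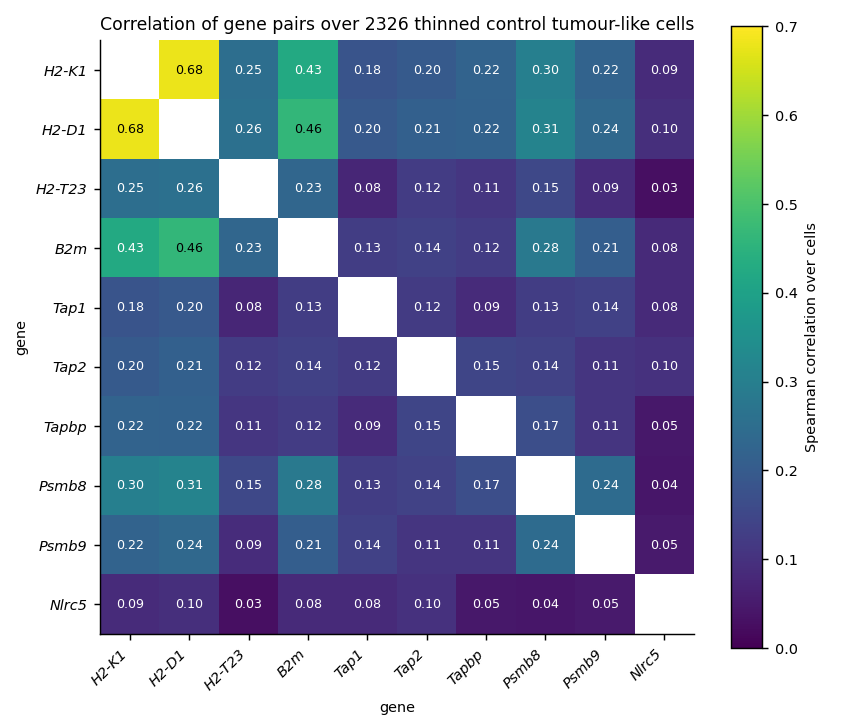
Spearman correlation (colour and printed value) of each pair of the 10 genes over 2326 control tumour-like cells thinned to 5000 UMIs. H2-K1, H2-D1 and B2m form the bright block (0.43 to 0.68), and the row of Nlrc5 is darkest.

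The genes nearest to the sum over the same cells included other class I genes. Of 7212 other genes, the 10 highest Spearman correlations were those of H2-Q4 (0.54) and H2-Q6 (0.51), non-classical heavy chain genes whose reads may also be shared, Ifitm3 (0.39), H2-T22 (0.38), Bst2 (0.37), Ifi27l2a (0.31), Psmb10 (0.29), the third immunoproteasome gene, Zbp1 (0.28), Ly6a (0.28) and H2-Q1 (0.27). Of these 10, H2-Q4, H2-Q6, H2-T22 and Psmb10 are in the list of other class I pathway genes and Bst2 is in that of type I interferon response, and the other 5 are in no list used here. The median over all genes was 0.00320, and 27 genes were above 0.2. The 10 lowest ran from -0.29 (Csrp2) to -0.19 (Eno1) and included Ldha (-0.25), Pgk1 (-0.24) and Pkm (-0.23), genes of glycolysis. Summed lists gave 0.58 for the other class I pathway genes, 0.41 for type I interferon response, 0.21 for interferon-gamma response, 0.05 for the standard proteasome, -0.04 for the cell cycle and -0.22 for hypoxia and glycolysis. Leukocyte markers gave 0.05, UMIs per cell before thinning -0.17 and the mitochondrial share 0.14. Gene by gene, the 2 interferon lists had the other order. The median was 0.203 over 11 interferon-gamma and 0.156 over 13 type I genes with a mean of at least 0.05. Bst2 alone held a mean of 3.33 of the 5.69 UMIs of the type I sum. In the interferon-gamma sum of 3.56, Irf1 held 1.04 (correlation 0.06) and Cxcl10 1.02 (0.13).

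The 4 control tumour-like clusters differed in which genes were high. Cluster 0 (1141 cells) was led by Cxcl1, Ccl2 and Csf2, genes of secreted signals. Cryab, Mt1 and Dnajb1 were also among its leaders. Cluster 2 (873 cells) was led by Tk1, Rrm2 and Cdc20, genes of cycling cells. Cluster 13 (284 cells) was led by Thbs2, Stc1, Mgp, Clu and Spp1, and cluster 17 (250 cells) by Neat1 and Malat1, RNAs retained in the nucleus, at a median of 5105 UMIs where the others had 21629.5 to 31731. The summed level was 56.3 per 10000 in cluster 0, 61.5 in cluster 2, 64.0 in cluster 13 and 58.4 in cluster 17. Dissociation and heat stress genes summed to 56.2, 12.8, 27.7 and 52.6 in the same order, and their part was not tested.

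Cluster 13 had the highest B2m (16.5, against 12.8 in cluster 0, 14.5 in cluster 2 and 10.6 in cluster 17) and H2-D1 (24.04, against 21.0, 22.4 and 21.7). Its Tap1 was the lowest (0.259, 0.221 to 0.301), against 0.417 in cluster 0, 0.553 in cluster 2 and 1.02 in cluster 17, and so was its Tapbp (0.963, against 1.30, 1.34 and 1.83). The cluster highest for these chain genes was thus the lowest for Tap1 and Tapbp. Psmb8 was highest in cluster 2 (4.23), then 3.46 in cluster 0, 2.99 in cluster 13 and 1.71 in cluster 17, and Psmb9 likewise (1.23, 0.813, 0.555 and 0.526). Cluster 13 also had the lowest sums of interferon-gamma response genes (1.37 per 10000, against 8.33, 6.504 and 10.5 in clusters 0, 2 and 17), of type I interferon response genes (5.81, against 9.03, 14.5 and 7.64) and of cell cycle genes (3.78, against 19.6, 32.4 and 27.01).

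Cluster 17 had the highest Tap1 (1.02), Tap2 (1.94, against 0.778 to 0.853), Tapbp (1.83), and Nlrc5 (0.431, against 0.0454 to 0.0650), and the lowest B2m and Psmb8. Its H2-K1 (17.3) and Psmb9 had intervals that overlapped those of cluster 13. Its standard proteasome sum was 14.8, against 26.5 to 33.0 in the others, and its leukocyte markers summed to 0.975, against 0.248 to 0.590. Low depth and the nuclear RNAs that lead it move with these values, and their part was not tested. Within each of the 4 clusters the pairs of the 10 genes still had median correlations above 0: 0.162 in cluster 0, 0.179 in cluster 2, 0.140 in cluster 13 and 0.115 in cluster 17. Of the 45 pairs, 45, 45, 43 and 38 were above 0 in that order, over 1102, 817, 281 and 126 thinned cells. The sum correlated with the type I interferon list at 0.39, 0.49, 0.25 and 0.33 in the same order. With the interferon-gamma list it correlated at 0.22, 0.33, 0.15 and 0.46.

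**Figure D5:**
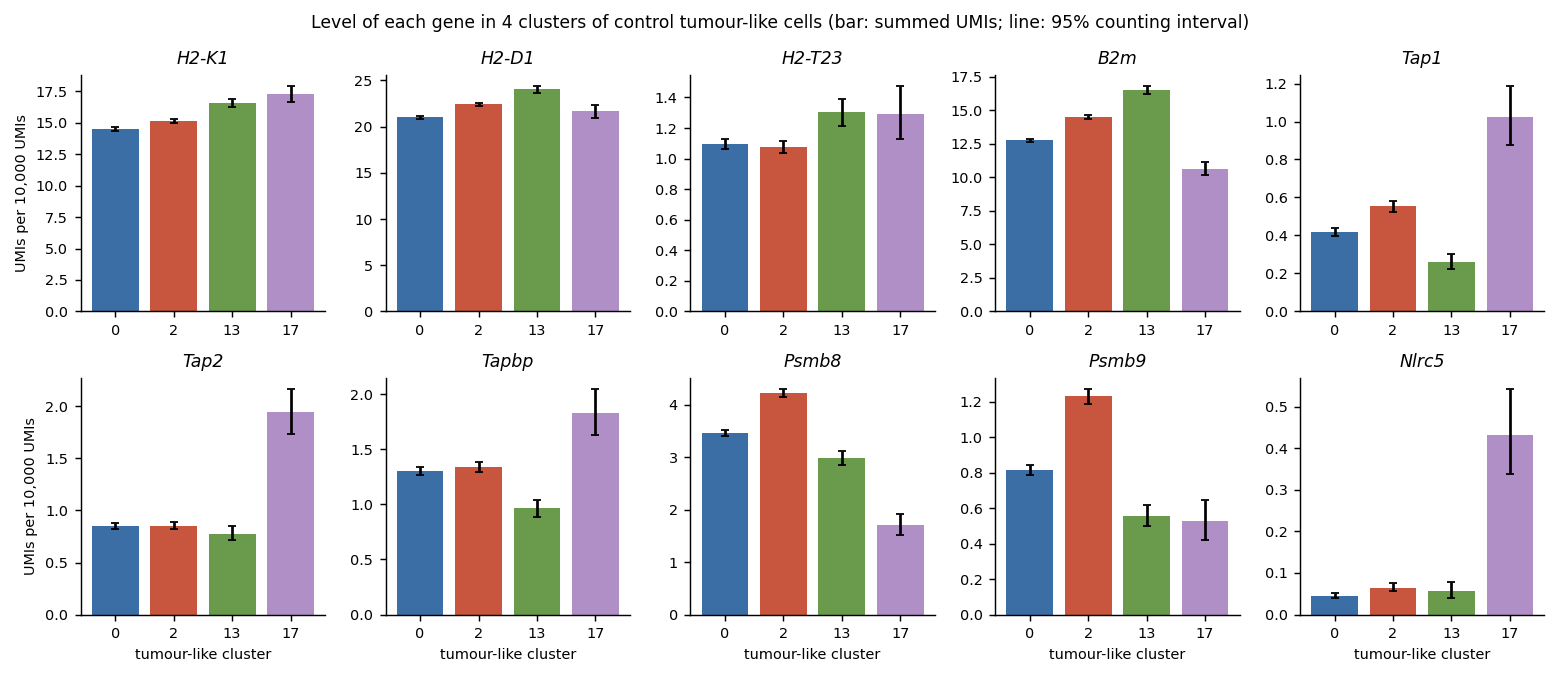
Level of each of the 10 genes (vertical axes from 0, UMIs per 10000 UMIs of the cluster, each panel on its own scale) in the 4 control tumour-like clusters, with 95% counting intervals. Cluster 13 is highest for B2m (16.5) and lowest for Tap1 (0.259), cluster 2 is highest for Psmb8 (4.23), and cluster 17 is highest for Nlrc5 (0.431).

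Likeness was also measured across classes. Over 18 pairs of class and library with at least 50 cells, the correlation of each gene's log2 level with the mean of the other 9 was highest for Tap1 (0.949) and Psmb9 (0.871) and lowest for Nlrc5 (0.549). Among 11462 other genes, set against the mean of the 10, the median was -0.134 and the 10 highest included Ccdc88b (0.874), Trpv2, Arhgef6, Rilpl2, Ebi3, Samhd1, Rnf115, Vav1 and Irf9 (0.814). The points share 2 libraries and differ in depth, so these are descriptions.

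The clusters left unnamed differed in their summed level. Cluster 6 (50 control and 413 anti-CTLA-4 cells) held all 6 T markers, and Cd8b1, Ccr7 and Cd27 led it. Its summed level was 129 in control and 108.4 in anti-CTLA-4 cells, with Psmb8 at 7.48 and 3.61 (ratio 0.482, 0.390 to 0.601), Tap2 at 1.95 and 0.942 (0.484, 0.319 to 0.762) and Nlrc5 at 0.524 and 0.272 (0.520, 0.235 to 1.36). These 3 of 10 were past 2-fold lower, where 8.07% of 4213 genes were. Cluster 8 (374 and 17 cells, led by Alas2 and Mcpt4, at low depth) stood at 48.2 (47.1 to 49.3) in control and 55.2 in anti-CTLA-4 cells. Its control sum was below that of each named control class. Its control H2-K1 was 10.7 and its Tap1 0.162. In cluster 8, 4 tumour markers and 0 mast cell or basophil markers were found in 20% of cells, and Ptprc in 0.512%. Control cells of the unnamed clusters together held 56.6 tumour-marker UMIs per 10000, beside 70.3 in tumour-like cells. Which cells cluster 8 holds was not tested. Cluster 14 (185 and 92 cells, led by Ctsk and Acp5) stood at 59.7 and 58.9.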

How the data were processed

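Raw UMI counts per gene and barcode were deposited for each expression library, not normalized. Cell Ranger 5.0.0 and the builds mm10 and GRCm38 are named in the submitters' processing notes, and the annotation release is not given in the sources used here. Of the 5 libraries, the 2 expression libraries were used, and the receptor libraries were not used here. The labels' protocols describe a tumour dissociation kit and a 5' immune profiling kit.

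Barcodes were kept from 200 genes upward and up to a mitochondrial share of 15%. Scrublet marked 0 control and 1 anti-CTLA-4 cells, which is too few, so the 240 and 133 top-scoring cells, as many as loading predicts, were removed instead. The cells of both libraries were clustered jointly, with no batch correction, in scanpy 1.11.5 (2000 variable genes, 30 components, 15 neighbours, leidenalg 0.10.2 at resolution 1). The 10 genes, the other class I pathway genes, MHC class II, receptor segments and genes of mitochondria or ribosomal proteins could not be variable genes. A cluster was named where at least 3 markers were found in 20% of its cells, and it stayed unnamed where its depth was low or its top genes belonged elsewhere. Tumour-like clusters had Ptprc in under 5% of cells. Names are rebuilt from markers and may differ from the authors'.

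UMIs were summed per class and library. Levels have exact Poisson intervals, shares exact Clopper-Pearson intervals and ratios exact conditional binomial intervals (scipy 1.17.1), all at 95%. Intervals leave out free RNA, doublets and differences between animals. Genes needed 50 UMIs over both groups to be counted, classes 50 cells in each library, and a call is a log2 ratio past 2-fold with 0.5 UMI added to each sum. Variation was measured after thinning each cell to 5000 UMIs. The ratio step was tested on simulated counts. Free RNA was estimated with 134 leading genes of the tumour-like clusters, and 10.2% of control and 20.3% of anti-CTLA-4 UMIs of a class were subtracted in that alternative. That estimate takes all such UMIs in T-like cells as free RNA, with remaining doublets and the cells' own expression included. The 134 genes summed to 56.7 per 10000 in control and 14.4 in anti-CTLA-4 T-like cells, where Crabp1 was 4.23 and 0.00884. The other alternatives changed the mitochondrial share (10%), the minimum of genes (500), the doublets (kept), the resolution (0.5 or 2) and the thinning depth (2000 or 10000 UMIs), allowed class I genes in clustering, took means over cells, took totals without mitochondrial and ribosomal genes, or left out tumour-like cells with a Ptprc UMI. The 10 genes and the gene lists were chosen with earlier results of these data known. All 10 genes are named; of each list, the genes farthest from a ratio of 1 by the nearer interval bound and those with most UMIs; and the 10 genes most like the sum. A gene that these rules also select is not reported here, and Gbp2 in keratinocyte-like cells was named after its values were seen. Genes named as lowest over cells, cluster leaders and single markers were picked after their values were seen. Coordinates are 1-based, from GENCODE M21 on GRCm38.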

Additional observations from a re-analysis of the deposited data

Results flagged for a closer look

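Some genes had ratios of anti-CTLA-4 over control past 2-fold in opposite directions in different classes, with intervals that left out 1. The difference between classes was not tested, since each library is 1 sample, and the classes of a library share its handling. Tap1 was 2.50 in neutrophil-like and 2.93 in B-like cells but 0.210 in keratinocyte-like cells. Tap2 was 2.26 in B-like cells but 0.374 in keratinocyte-like and 0.432 in NK-like cells. Psmb9 was 2.42 in neutrophil-like cells but 0.284 in keratinocyte-like and 0.441 in NK-like cells. The B-like values rest on 7 control UMIs of each gene, and the neutrophil-like values on 13 control UMIs of Tap1 and 16 of Psmb9.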

How the results depend on the processing

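No paired analysis was possible because each group has 1 library. The alternatives gave 1414 ratios of the 10 genes, in the 8 comparisons of the libraries and the 8 of tumour-like cells with another class. Of these, 1382 kept their side of 2-fold, 15 moved past it and 17 fell short of it. Of the ratios past 2-fold in the main setting, 0 reversed. The direction of ratios within 2-fold was not compared. Free RNA was subtracted in the comparisons of the libraries only. With free RNA subtracted, 7 of the 10 genes were past 2-fold lower in anti-CTLA-4 keratinocyte-like cells, with H2-D1 (log2 ratio -1.15), Tapbp (-1.82) and Nlrc5 (-1.05) added. That setting takes a larger share of the anti-CTLA-4 UMIs, from a profile in which the added genes are higher, so it cannot decide these calls. With means over cells, 1 of the 10 was past 2-fold higher in T-like cells, Nlrc5 (1.15). With the same means, 1 was past 2-fold lower in tumour-like against keratinocyte-like cells, and 2 were past 2-fold higher against B-like cells, Tap2 (1.01) and Nlrc5, which has no UMI in control B-like cells. With totals that left out mitochondrial and ribosomal genes, 2 were past 2-fold lower against neutrophil-like cells. H2-K1 in neutrophil-like cells was under 2-fold with at least 500 genes (0.98), with totals that left out mitochondrial and ribosomal genes (0.95) and with free RNA subtracted (0.96). With at least 500 genes, 28 control neutrophil-like cells remained. B2m in tumour-like against monocyte/macrophage-like cells was -0.96 with the smaller totals, and Tap2 and Nlrc5 against T-like cells were -0.99 and -0.98 with means over cells. Thinned to 2000 UMIs, 14 of 45 pairs had a correlation above 0.1, and thinned to 10000 UMIs, 8 of the 10 genes had a variance over mean above 1.5, since both measures depend on depth. Chosen after the data were seen were the settings that added cluster 6 to the T-like class and that left out cluster 17, and the former moved no call. Without cluster 17, Psmb9 against neutrophil-like cells was -0.997, and no other call moved. Against neutrophil-like cells, Psmb9 was also short of 2-fold under 2 further settings (-0.90 and -0.69) and Nlrc5 with at least 500 genes (-0.90), while Tap2 was past it under 2 (-1.53 and -1.19). Against dendritic-like cells, Tapbp was short of it at resolution 2 (-0.94) and Tap2 past it with doublets kept (-1.12). Tap1 against keratinocyte-like cells was -0.96 with means over cells. The levels of H2-K1 and H2-D1 depend on a reference of another haplotype, and no setting here changes that. With 1 library a group, the spread between animals is unknown.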
